A study of Homo sapiens with 16 samples.

Results

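The EZH2 peaks of LNCaP cells that carried a guide against PRKCI (sgPRKCI) were set against those of LNCaP cells that carried a control guide (sgC), both kept in DMSO for 72 h. The members are all EZH2 peaks of these 2 libraries on chromosomes 1 to 22 and X, 17598 of the 507434 peaks in the 12 peak lists of the study, with 6165 peaks in sgPRKCI DMSO and 11433 in sgC DMSO. An sgC peak was called kept where an sgPRKCI peak overlapped it by at least 1 bp and lost where none did, and an sgPRKCI peak with no overlapping sgC peak was called gained. Each peak was also placed in 1 of 4 classes by overlap with H3K4me3 and H3K27me3 peaks of the sgC DMSO libraries, called its baseline marks: H3K4me3 only, H3K27me3 only, both marks or neither mark.

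The study profiled EZH2, H3K4me3, H3K27me3 and an IgG control by CUT&RUN, in which a nuclease tethered to an antibody releases the chromatin fragments around its target. LNCaP is an established androgen-responsive prostate carcinoma line, and the labels do not say whether the guided cells were a pool or 1 clone. Other arms of the study received 10 µM enzalutamide, an antiandrogen, for 72 h with the same guides. Each antibody gave 1 library in each condition, so no difference has a replicate check, no test across conditions was possible, and the exact 95% intervals on shares cover counting error only. The mean number of fragments over a base of the genome, worked out from the peaks' own statistics, was 1.13 in the sgPRKCI EZH2 library and 1.35 in the sgC EZH2 library. For H3K4me3 it was 1.22 in sgPRKCI and 0.842 in sgC, so there the sgPRKCI library was the deeper. H3K4me3 lay at 10 of 10 luminal prostate markers (KLK3 and TMPRSS2 among them) in both guides, and at 2 of 10 markers of other cells in sgPRKCI (COL1A1 and VIM) and 1 of 10 in sgC (COL1A1). At PRKCI itself no EZH2 peak was called in either library and the H3K4me3 peak had a fold enrichment of 36.5 in sgPRKCI and 27.9 in sgC, which does not check the edit, since neither mark reads the guide's target.

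EZH2 is the catalytic subunit of Polycomb repressive complex 2, which methylates histone H3 at lysine 27; H3K27me3 domains typically cover silent developmental genes at CpG-rich promoters. H3K4me3 marks the promoters of active genes, and promoters with both marks are called bivalent. PRKCI encodes the atypical protein kinase C iota, a kinase of cell polarity and growth signalling.

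The 250 bases upstream of 7 transcription starts are shown because each has the strongest promoter peak of its kind among the single-copy, named genes for which a sequence was used: a lost, then a kept, example for each class with a mark, and the strongest gained one. The first 3 lay under or beside EZH2 peaks of sgC that had no counterpart in sgPRKCI (H3K4me3 only at TMEM19, H3K27me3 only at CYP26B1, both marks at SH3GLB1). The next 3 lay under kept peaks (H3K4me3 only at TMEM106B, H3K27me3 only at UNCX, both marks at MB21D2), and SNRK lay under a peak gained in sgPRKCI. Sequences are from RefSeq (GRCh38.p14), 5′ to 3′ on the strand of the gene, with CpG dinucleotides in capitals.
TMEM19, chr12:71685832-71686081, plus strand: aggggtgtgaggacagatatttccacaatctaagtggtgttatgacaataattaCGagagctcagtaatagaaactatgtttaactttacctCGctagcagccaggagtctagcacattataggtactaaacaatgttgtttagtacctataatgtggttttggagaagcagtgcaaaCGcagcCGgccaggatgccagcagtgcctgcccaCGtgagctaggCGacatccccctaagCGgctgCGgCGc
CYP26B1, chr2:72147863-72148112, minus strand: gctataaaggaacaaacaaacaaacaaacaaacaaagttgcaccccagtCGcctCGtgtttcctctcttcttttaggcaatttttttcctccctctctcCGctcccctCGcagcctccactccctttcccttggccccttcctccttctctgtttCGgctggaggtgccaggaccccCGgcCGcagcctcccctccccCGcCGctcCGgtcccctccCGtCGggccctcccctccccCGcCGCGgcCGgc
SH3GLB1, chr1:86704326-86704575, plus strand: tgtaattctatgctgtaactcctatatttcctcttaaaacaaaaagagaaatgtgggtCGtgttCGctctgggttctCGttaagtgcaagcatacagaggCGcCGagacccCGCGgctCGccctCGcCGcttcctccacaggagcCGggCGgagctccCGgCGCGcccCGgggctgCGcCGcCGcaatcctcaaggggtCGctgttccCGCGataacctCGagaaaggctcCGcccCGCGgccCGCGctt
TMEM106B, chr7:12211044-12211293, plus strand: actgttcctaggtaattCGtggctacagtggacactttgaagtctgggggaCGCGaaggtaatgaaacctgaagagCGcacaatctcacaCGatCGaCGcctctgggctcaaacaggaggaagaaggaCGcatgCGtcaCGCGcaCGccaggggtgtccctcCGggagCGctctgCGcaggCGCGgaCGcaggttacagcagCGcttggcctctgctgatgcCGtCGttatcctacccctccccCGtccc
UNCX, chr7:1232622-1232871, plus strand: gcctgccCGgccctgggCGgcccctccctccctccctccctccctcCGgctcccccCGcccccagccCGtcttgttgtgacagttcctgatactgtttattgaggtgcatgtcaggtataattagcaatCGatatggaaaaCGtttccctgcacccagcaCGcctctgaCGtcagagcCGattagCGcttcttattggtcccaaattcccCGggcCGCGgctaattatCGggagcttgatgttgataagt
MB21D2, chr3:192917857-192918106, minus strand: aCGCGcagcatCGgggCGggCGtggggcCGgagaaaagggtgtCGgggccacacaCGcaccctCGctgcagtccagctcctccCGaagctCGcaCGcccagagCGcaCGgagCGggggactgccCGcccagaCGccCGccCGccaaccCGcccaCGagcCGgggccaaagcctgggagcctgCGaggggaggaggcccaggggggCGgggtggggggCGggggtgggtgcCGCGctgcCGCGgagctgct
SNRK, chr3:43286290-43286539, plus strand: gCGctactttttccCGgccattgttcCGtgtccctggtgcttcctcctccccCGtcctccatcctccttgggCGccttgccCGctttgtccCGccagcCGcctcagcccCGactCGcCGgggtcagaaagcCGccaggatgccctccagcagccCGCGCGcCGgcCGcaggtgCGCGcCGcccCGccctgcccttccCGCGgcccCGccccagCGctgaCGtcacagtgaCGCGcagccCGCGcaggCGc
These 250-base stretches held 9 CpGs at TMEM19, 16 at CYP26B1 and 28 at SH3GLB1, against 22 at TMEM106B, 15 at UNCX and 29 at MB21D2, and 31 at SNRK. The lost and the kept examples thus overlapped in CpG number. At TMEM19 the called peak reached only the last 15 of the printed bases, while at UNCX, MB21D2, TMEM106B and SNRK it covered all 250.

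The sgPRKCI list was shorter than the sgC list, and the H3K4me3-only class was the most reduced. Of the 11433 sgC peaks, 7210 (63.1%, interval 62.2 to 63.9%) had no sgPRKCI peak and 4223 were kept. Of the 6165 sgPRKCI peaks, 1310 (21.2%, 20.2 to 22.3%) were gained. Peaks with H3K4me3 only numbered 683 in sgPRKCI and 2730 in sgC, and 82.3% (80.8 to 83.7%) of those in sgC were lost. Peaks with H3K27me3 only numbered 4892 in sgPRKCI and 7633 in sgC, with 57.1% (55.9 to 58.2%) lost. Peaks with both marks numbered 372 in sgPRKCI and 560 in sgC, with 30.5% (26.7 to 34.5%) lost, and peaks with neither mark 218 and 510, with 85.7% (82.3 to 88.6%) lost. The H3K4me3-only share of the list was accordingly 11.1% in sgPRKCI and 23.9% in sgC, while the H3K27me3-only share was 79.4% in sgPRKCI and 66.8% in sgC. With equal numbers of peaks, the 6165 strongest of sgC against the sgPRKCI list, 2754 sgC peaks were lost and 2045 sgPRKCI peaks were gained, and the shares lost were 73.9% for H3K4me3 only, 36% for H3K27me3 only, 24.2% for both marks and 75.4% for neither.

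**Figure D1:**
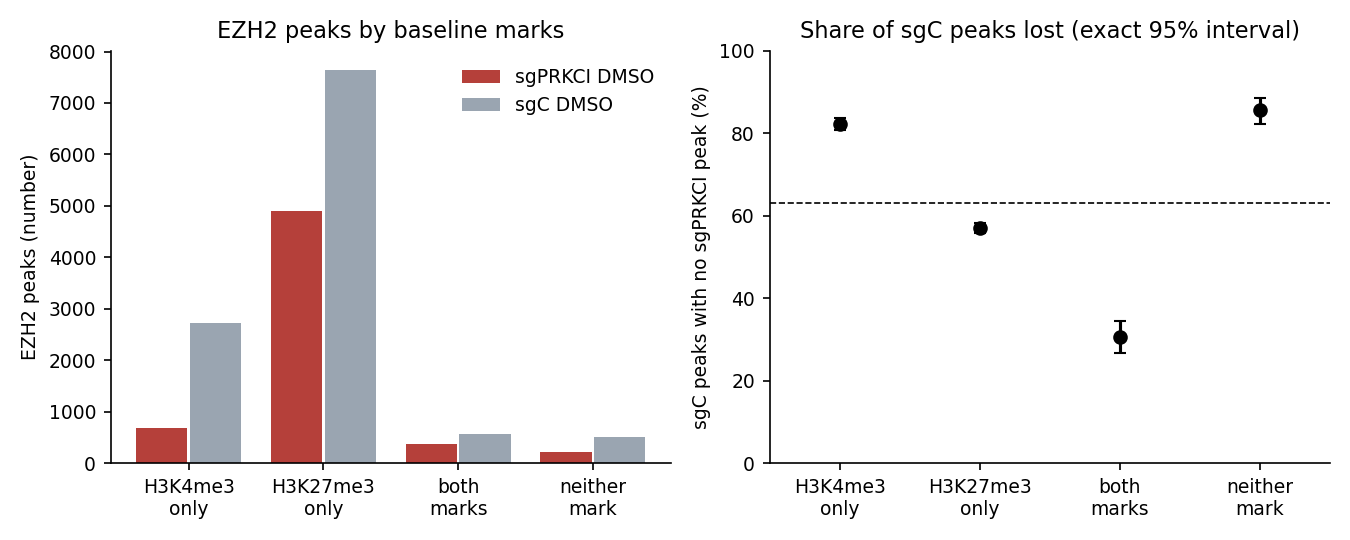
Left, number of EZH2 peaks (vertical axis) in sgPRKCI DMSO and sgC DMSO by baseline marks. Right, percent of sgC peaks with no overlapping sgPRKCI peak (points) with exact 95% intervals (bars) and the share over all classes, 63.1%, as a dashed line; H3K4me3-only peaks lie above that line at 82.3% and peaks with both marks below it at 30.5%.

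Most lost peaks were weak ones in sgC. Summit height is given here as the fragments piled up at the summit over the mean coverage of the library. In sgC the median height was 11.8 for lost peaks and 18.5 for kept peaks, and the median width 391 bp for lost and 1029 bp for kept. The height needed for a call in sgPRKCI was computed from its coverage and the local background of the sgC peak scaled to it. The median lost peak stood at 1.17 times that height and the median kept peak at 1.72 times, so that a summit lower by 1.17-fold would end the call at the median lost site.

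Within bins of height the classes still separated. The sgC peaks were split by height into 5 bins, which held 1685 to 2826 peaks. The highest bin reached up to 1474.8, so heights inside it were not matched between classes. The median height needed for an sgPRKCI call also differed, at 12.4 for H3K4me3-only, 8.88 for H3K27me3-only and 10.7 for both-mark peaks. In the highest bin (21.4 times coverage and above), 62.6% (58.5 to 66.6%) of 575 H3K4me3-only peaks were lost, against 4.2% (3.16 to 5.46%) of 1262 H3K27me3-only peaks and 10.7% (7.35 to 14.8%) of 291 with both marks. In the lowest bin (7.4 to 10.4) the shares lost were 97.2% for H3K4me3 only and 88.5% for H3K27me3 only, so the gap between these classes widened with height. Peaks with both marks, lost least often over the whole list, were lost more often than H3K27me3-only peaks in every height bin but the second lowest, with 33.1% (25.3 to 41.7%) against 25.8% (23.3 to 28.4%) in the second highest. The lowest height bin held only 22 peaks with both marks. The order changed with bins of −log10 q, the significance of a peak. There, peaks with both marks were lost less often in the lower bins (82.6% against 87%, 71.4% against 80.2%, 63.6% against 69.5%). They were lost more often in the upper bins (47.4% against 43.3%, 9.38% against 6.72%). Of the 1666 sgC peaks that were at least 2 times as high as needed for an sgPRKCI call, 139 were lost (8.34%). These were 62 of 157 with H3K4me3 only (39.5%, 31.8 to 47.6%), 51 of 1244 with H3K27me3 only (4.1%, 3.07 to 5.36%), 20 of 250 with both marks (8%) and 6 of 15 with neither mark.

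**Figure D2:**
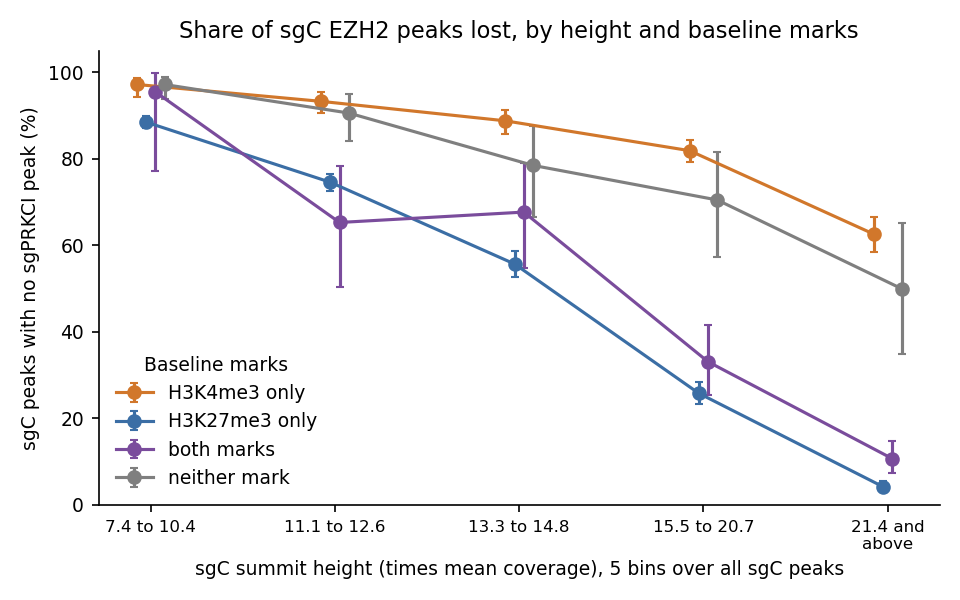
Percent of sgC EZH2 peaks with no sgPRKCI peak (vertical axis) by sgC summit height in multiples of mean coverage (horizontal axis, 5 bins over all sgC peaks); points are shares and bars exact 95% intervals, with 1 line per class of baseline marks. The H3K27me3-only line drops to 4.2% in the highest bin and the H3K4me3-only line to 62.6%.

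Among H3K4me3-only peaks near genes, the strongest losses lay at PPM1L, which encodes a protein phosphatase, MSRA, a methionine sulfoxide reductase, TMEM19, a transmembrane protein, NACC2, a BTB-domain repressor, and ZDHHC13, a palmitoyltransferase. Their sgC summits held 62 fragments at PPM1L, 44 at MSRA, 44 at TMEM19, 34 at NACC2 and 32 at ZDHHC13, and no peak was called in sgPRKCI. These 5 stood between 2.44 and 3.05 times the height needed for a call, so a call would be missing only with a summit lower by at least that factor, if the local background was as in sgC. H3K4me3 was called at all 5 in sgPRKCI as in sgC, and H3K27me3 at none in either. For kept peaks the class given here is that of the sgPRKCI peak, and a wider sgC peak over the same site can touch a further mark. The strongest kept sgPRKCI peaks with H3K4me3 only lay at CADM1, EN2, NFATC1 and LINC02798. At CADM1, a cell adhesion gene, the height was 46.2 times coverage in sgPRKCI and 54 in sgC, where the wider sgC peak also overlapped H3K27me3. At NFATC1, a transcription factor of calcium signalling, it was 35.5 in sgPRKCI and 31.1 in sgC, and at LINC02798 27.5 and 40.7. At EN2, a homeobox gene, the sgPRKCI peak stood at 33.8 and the sgC peak it overlapped at 28.1, but a neighbouring sgC peak that it did not overlap stood at 43.6, so no direction is given there.

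Among H3K27me3-only peaks near genes the strongest loss was at TWIST1 (chr7:19116668-19117662), a transcription factor of mesenchymal cells, where the sgC summit held 37 fragments at a height of 27.4. It was followed by SEMA5A, an axon guidance gene (39 fragments), CYP26B1, a retinoic acid hydroxylase (34), LRP4, a co-receptor of the neuromuscular junction (31), and BNC2, a zinc finger gene (30). H3K27me3 was still called in sgPRKCI at TWIST1, CYP26B1, LRP4 and BNC2, and not at SEMA5A. A peak of H3K4me3 was called at TWIST1 in sgPRKCI, the deeper H3K4me3 library, and not in sgC. The strongest kept peaks of the class, at TAF11L and USP17L genes on chromosomes 5 and 4, lie in families of near-identical copies and their values are uncertain. At UNCX, a homeobox gene whose promoter is printed above, the kept peak stood at 95.9 times coverage in sgPRKCI and 104.3 in sgC.

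Among peaks with both marks the strongest losses lay at SH3GLB1, which encodes endophilin B1, and FGFR3, a fibroblast growth factor receptor (chr4:1793340-1795364), each with 42 fragments and a height of 31.1 in sgC. CAMK2N2, an inhibitor of calcium/calmodulin-dependent kinase, held 38 fragments, and TIAM1, an exchange factor for RAC1, and TENT5A, a poly(A) polymerase, 30 each. H3K27me3 was no longer called in sgPRKCI at SH3GLB1, FGFR3, CAMK2N2 or TENT5A, and was still called at TIAM1, while H3K4me3 was called at all 5. The strongest kept peaks lay at BMI1, ADGRB1, SCRT1 and NPTX1. BMI1, a subunit of Polycomb repressive complex 1, stood at 89.7 times coverage in sgPRKCI and 93.2 in sgC, and ADGRB1, an adhesion receptor, at 62.2 and 93.9. BMI1 thus differed little in height between the guides, and ADGRB1 was lower in sgPRKCI, with a log2 ratio of -0.595. The called peak at BMI1 was narrower in sgPRKCI (chr10:22321985-22322907) than in sgC (chr10:22320251-22323352). H3K27me3 was called at BMI1 in sgC and not in sgPRKCI, although EZH2 was kept there. At ADGRB1, SCRT1 and NPTX1 it was called in both guides.

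Among peaks with neither mark, the strongest losses near genes were at PCDHA5, a protocadherin (30 fragments in sgC), ADAMTS10 (23), ACP3, which encodes prostatic acid phosphatase (27), GPR153 (19) and RAB39A (25). The strongest kept peaks of this class lay at SPRY4, an inhibitor of receptor tyrosine kinase signalling (20.4 times coverage in sgPRKCI, 25.1 in sgC), KCTD8, ADAMTSL3 and SALL3, although the wider sgC peak at SALL3 overlapped H3K27me3.

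Gained peaks were lower than kept ones, with a median height of 12.4 against 16.9 for the kept peaks of sgPRKCI. The strongest near genes lay at SNRK, a kinase of the AMPK-related family, with 25 fragments and a height of 22.2, DLGAP3, a scaffold protein of synapses (21 fragments), and IKZF2, the transcription factor Helios (19). The others were LRP12, ROR2, COQ2, NR2C2 and TTLL7, with 19 to 26 fragments, and 6 of these 8 peaks had H3K4me3 only. At ROR2 a neighbouring sgC peak that it did not overlap stood at 16.3, so the gene itself counts as kept. These 8 were picked near genes, where 119 of all 195 gained peaks had H3K4me3 only. Over all gained peaks 12.8% had H3K4me3 only and 77.2% H3K27me3 only. Over all gained peaks 750 of 1310 (57.3%) had an sgC EZH2 peak within 5 kb, and the share was 67.9% for H3K27me3 only and 15.5% for H3K4me3 only. In both classes gained peaks lay between lost and kept ones in how often another sgC peak lay within 10 kb. The shares were 73.9% of gained, 68.8% of lost and 79.1% of kept H3K27me3-only peaks. For H3K4me3-only peaks they were 17.9%, 14% and 24.6% in the same order.

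Peaks kept in both libraries differed little in height. Over 4223 pairs the median height was 17.8 in sgPRKCI and 18.5 in sgC, a median log2 ratio of -0.08, with 24 pairs (0.568%) at least 2-fold lower and 40 (0.947%) at least 2-fold higher in sgPRKCI. The median log2 ratio was -0.23 (interval -0.27 to -0.19) over 483 H3K4me3-only pairs, -0.30 (-0.34 to -0.27) over 389 pairs with both marks, -0.03 (-0.04 to -0.02) over 3278 H3K27me3-only pairs and -0.02 (-0.13 to 0.13) over 73 with neither mark. Pairs with both marks were lower in sgPRKCI in 78.7% of cases, H3K4me3-only pairs in 73.3% and H3K27me3-only pairs in 52.8%. With fold enrichment over the local background in place of height, the H3K4me3-only median was -0.03, so that the lower height there depends on the scale used. Pairs exist only where both libraries passed the threshold, which leaves out every larger decrease that ended the call.

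**Figure D3:**
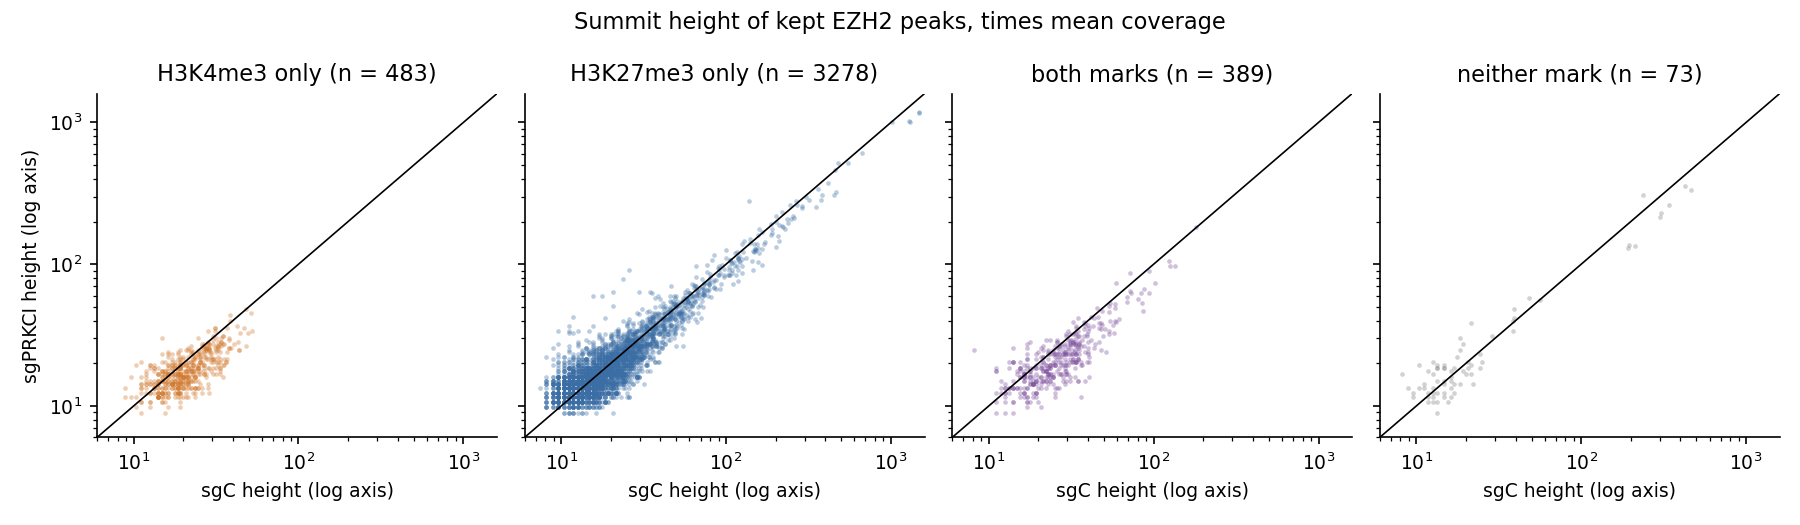
Summit height of each kept EZH2 peak in sgPRKCI DMSO (vertical log axis) against sgC DMSO (horizontal log axis), in multiples of mean coverage, 1 panel per class of baseline marks; each point is 1 sgC peak with its strongest overlapping sgPRKCI peak and the line marks equal heights. Points with both marks lie mostly under the line (78.7%), and those with H3K27me3 only on both sides of it (52.8% under).

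The 5 lowest ratios near genes, among pairs with at least 20 fragments at both summits, included CHRM4, a muscarinic receptor, with a height of 20.4 in sgPRKCI and 40.7 in sgC, and KCNJ2, an inward rectifier potassium channel, with 20.4 and 39.2. The lowest of all was a peak shared by CSMD2 and C1orf94, at 26.6 in sgPRKCI and 54.7 in sgC, a log2 ratio of -1.04. PALM2AKAP2, at 17.8 and 34.8, and PLOD2, a lysyl hydroxylase, at 20.4 and 39.2, completed the 5. These sites kept H3K27me3 in sgPRKCI. The highest ratio was at EBF3, a developmental transcription factor, with 36.4 in sgPRKCI and 15.5 in sgC, a log2 ratio of 1.23. It was followed by a peak shared by ABHD3 and MIB1 (1.03), CACNG6, a calcium channel subunit (0.75), a peak shared by ETV4 and DHX8 (0.68) and TACR1, the substance P receptor (0.68).

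Kept peaks were narrower in sgPRKCI, with a median width of 681 bp against 1029 bp in sgC, and 678 sgC peaks were overlapped by 2 or more sgPRKCI peaks. The reverse, an sgPRKCI peak over 2 or more sgC peaks, was seen 201 times. H3K27me3-only pairs had a median width of 777 bp in sgPRKCI and 1138 bp in sgC, and pairs with both marks 745 and 1322 bp. Called width moves with depth, which was lower in sgPRKCI, and the part of depth in it was not tested.

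At H3K4me3-only and H3K27me3-only sites that lost EZH2, the baseline mark was still called in sgPRKCI at nearly all. At bivalent sites that lost EZH2, H3K27me3 was called less often. At H3K4me3-only sites, H3K4me3 was called in sgPRKCI at 99.6% of lost and 98.8% of kept sites. The H3K4me3 peaks under lost EZH2 sites had a median height of 110.1 in sgPRKCI and 103.3 in sgC, and those under kept sites 88.7 and 79.6. H3K4me3 height relative to coverage was thus not lower in sgPRKCI where EZH2 was lost, and the median log2 ratios, 0.08 at lost and 0.10 at kept sites, lay near the 0.05 of H3K4me3 peaks without EZH2. Heights are scaled to coverage, but the H3K4me3 calls of sgPRKCI come from the deeper library (1.22 against 0.842 in sgC). At H3K27me3-only sites, H3K27me3 was called in sgPRKCI at 95.3% of lost and 99.5% of kept sites. The share was 63.9% at the 95230 sgC H3K27me3 peaks with no H3K4me3 in sgC and no EZH2 in either DMSO library. That share was read over whole H3K27me3 peaks and not over EZH2 sites.

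At sites with both marks, H3K27me3 was called in sgPRKCI at 102 of 171 lost sites (59.6%, 51.9 to 67.1%) and at 349 of 389 kept sites (89.7%, 86.3 to 92.6%). The comparison was with sgC H3K4me3 peaks that had H3K27me3 in sgC and no EZH2 in either DMSO library. These had H3K27me3 called in sgPRKCI in 71 of 100 cases (71%, 61.1 to 79.6%). The lost sites overlapped that interval and the kept sites lay above it. The mean share of peak bases under H3K27me3 was 45.1% in sgPRKCI and 67.8% in sgC at lost sites, and 73.7% and 78.9% at kept sites. This class was chosen by an H3K27me3 call in sgC, which partly sets a lower value in sgPRKCI. At neither-mark sites, chosen for no call in sgC, sgPRKCI had H3K27me3 at 143 of 437 lost and 34 of 73 kept sites. Lost both-mark peaks were also narrower in sgC than kept ones (medians 563 and 1322 bp). The 71% was read over whole H3K4me3 peaks. H3K4me3 was called in sgPRKCI at 90.6% of lost and 94.3% of kept sites of this class. No depth could be worked out for H3K27me3, because broad peaks hold means over regions.

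**Figure D4:**
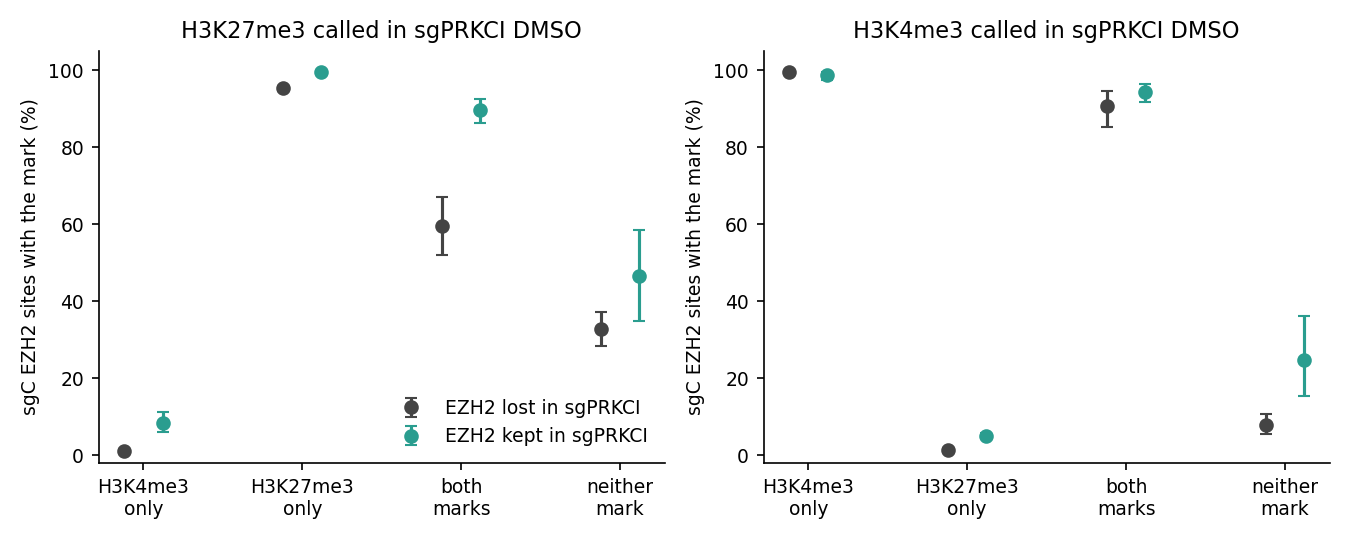
Percent of sgC EZH2 sites (vertical axis) at which H3K27me3 (left) or H3K4me3 (right) was called in sgPRKCI DMSO, for sites where EZH2 was lost or kept in sgPRKCI, by baseline marks; bars are exact 95% intervals. At sites with both marks H3K27me3 was called at 59.6% of lost and 89.7% of kept sites.

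Seen from the marks, EZH2 was called at 3.86% (3.57 to 4.16%) of the 16753 baseline H3K4me3 peaks without H3K27me3 in sgPRKCI and at 15.7% (15.1 to 16.2%) in sgC. At the 643 H3K4me3 peaks with H3K27me3 it was called at 57.2% (53.3 to 61.1%) in sgPRKCI and 84% (80.9 to 86.7%) in sgC. The enzalutamide libraries, which are other samples, were read at the same sites. EZH2 was called at H3K4me3-only sites in sgPRKCI enzalutamide at 97.6% of the lost and 97.1% of the kept ones, and in sgC enzalutamide at 13.4% of the lost and 44.7% of the kept ones. At H3K27me3-only sites the sgPRKCI enzalutamide library had 27.9% of the lost and 75.8% of the kept sites, and sgC enzalutamide 71.5% and 97.1%. In sgPRKCI with enzalutamide, nearly all of these H3K4me3-only sites therefore carried EZH2, whether or not sgPRKCI had it in DMSO. Gained H3K4me3-only sites had it there in 94% of cases. The share over all baseline H3K4me3 peaks was not worked out, so these values do not set the lost sites apart from other H3K4me3 peaks.

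Lost H3K4me3-only peaks lay within 1 kb of an annotated gene end in 77.4% of cases and kept ones in 73.9%. Lost H3K27me3-only peaks did so in 8.75% of cases and kept ones in 23.1%, so within that class the peaks near genes were kept more often. The kept peaks of that class were also higher and wider in sgC (medians 17.8 and 1138 bp) than the lost ones (11.1 and 398 bp). The part of height and width in this difference was not tested. Of 19974 protein-coding genes, 1536 (7.69%) had EZH2 within 1 kb of an end in sgPRKCI and 3656 (18.3%) in sgC. EZH2 was lost at 2271 genes (11.4%) and gained at 151 (0.756%). Genes with H3K4me3 only lost it at 1810 of the 2159 that had it in sgC (83.8%), genes with H3K27me3 only at 275 of 962 (28.6%) and genes with both marks at 171 of 515 (33.2%). These shares are the background against which the lists below stand, and with equal numbers of peaks 1095 genes lost EZH2 and 318 gained it.

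Heights given for gene lists are those of the strongest peak within 1 kb of the gene in each library, and they are compared only where these peaks overlap. HOX cluster genes, which pattern the body axis, had EZH2 at 9 of 39 in sgPRKCI and 11 in sgC. HOXD8 stood at 51.5 times coverage in sgPRKCI and 49.6 in sgC, and HOXB8 at 39.1 and 37.7, while HOXB7 (22.9 in sgC) and HOXD1 (11.8 in sgC) had no sgPRKCI peak. Other developmental transcription factors had EZH2 at 56 of 140 in sgPRKCI and 80 in sgC, with 26 lost, 54 kept and 2, LHX8 and ONECUT2, newly within 1 kb. The LHX8 peak overlapped an sgC peak that lay farther from the gene, so it is no gained peak. The net loss of 24 members was 13 where no peak within 5 kb was allowed in the other library, 15 within 1 kb of the transcription start and 7 with equal numbers of peaks. The share lost in this list is close to that of all genes with H3K27me3 only or both marks (28.6% and 33.2%). FOXF1, a factor of lung and gut mesenchyme, stood at 71.1 in sgPRKCI and 84.3 in sgC, and GATA3, a luminal and T-cell factor, at 64 and 68. The members lost included VAX1 (22.2 in sgC), NKX2-8 (22.9) and NKX2-1 (20.7), and at all 3 H3K27me3 was still called in sgPRKCI. Where the strongest peaks overlapped, 1 of 7 kept HOX genes and 41 of 48 other kept factors were lower in sgPRKCI. HOXD3 and HOXD4 share the same peaks and count as separate genes. The share over all genes paired in this way was not worked out, here or for the lists below. Over all kept peak pairs 57.5% were lower in sgPRKCI. Their median log2 ratio was -0.08, and -0.17 for pairs with at least 20 fragments in sgC.

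WNT ligands and antagonists had EZH2 at 8 of 28 in sgPRKCI and 11 in sgC, with WNT11 (29.3 in sgPRKCI, 31.1 in sgC) and WNT7A (26.6 and 27.4) kept and WNT9A, WNT10A and SFRP2 lost. Potassium and calcium channel subunits had it at 27 of 59 in sgPRKCI and 33 in sgC, with KCNC4 at 42.6 in sgPRKCI and 51 in sgC, 7 members lost and KCNA3 gained. Receptor tyrosine kinases, the growth factor receptors of the cell surface, had it at 16 of 54 in sgPRKCI and 26 in sgC. The 10 lost members were EGFR, FGFR1, FGFR3, FGFR4, KIT, MET, INSR, NTRK2, EPHA10 and PTK7. Of these, EGFR, FGFR1, FGFR4, KIT, INSR and PTK7 had H3K4me3 only at baseline, with sgC heights of 11.8 to 17. The kept IGF1R, also with H3K4me3 only, stood at 22.2 in sgPRKCI and 40.7 in sgC, while EPHA4 and FLT3, with both marks, stood at 26.6 and 32 in sgPRKCI and at 36.2 and 39.2 in sgC. Of 15 kept kinases with overlapping peaks, 13 were lower in sgPRKCI and 2 were higher, EPHB1 (34.6 in sgPRKCI, 31.8 in sgC) and INSRR (20.4 and 17.8), which are named here after their values were seen.

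Neuroendocrine and neural lineage genes had EZH2 at 7 of 30 in sgPRKCI and 11 in sgC. NCAM1, a neural adhesion molecule, stood at 42.6 in sgPRKCI and 47.3 in sgC, and SOX2, a stem cell and neural factor, at 34.6 and 48.8. Of 6 kept members with overlapping peaks 3 were lower and 3 higher in sgPRKCI, and at NEUROD2 the strongest peaks of the libraries did not overlap. ENO2, GRP, SRRM4 and L1CAM were lost, with sgC heights of 10.4 to 14.8. Basal and mesenchymal genes had EZH2 at 6 of 30 in sgPRKCI and 10 in sgC. CAV1 (33.8 in sgPRKCI, 45.9 in sgC), ZEB2 (20.4 and 42.2) and ZEB1 (22.2 and 34.8) were kept, and TWIST1, PRRX1, COL1A1 and COL1A2 lost. Of the 6 kept members of this second list 5 were lower in sgPRKCI.

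Genes of active, housekeeping type carried few EZH2 peaks in sgC and nearly none in sgPRKCI. Oxidative phosphorylation subunits had EZH2 at 0 of 67 in sgPRKCI and 8 in sgC, among them ATP5F1A, ATP5F1C, COX4I1, COX7C and NDUFB2. These 8 had H3K4me3 only and weak sgC peaks, with fold enrichments of 3.16 to 6.29, and their loss compares with 83.8% of all such genes. Cell cycle and DNA replication genes had EZH2 at 1 of 46 in sgPRKCI and 5 in sgC, with the H3K27me3-marked CDK6 kept and MCM6, ORC6, POLD1 and RB1 lost. Cytosolic ribosomal proteins had it at 1 of 78 in sgPRKCI (RPL38) and 2 in sgC (RPL38 and RPL7), and translation initiation and elongation factors at 0 of 42 in sgPRKCI and 1 in sgC (EEF1A1). Each of these housekeeping lists lay below the 4.13% in sgPRKCI and 19.2% in sgC of genes with H3K4me3 only. Oxidative phosphorylation subunits stood at 0% in sgPRKCI and 11.9% in sgC, and cell cycle and DNA replication genes at 2.17% and 10.9%.

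Polycomb subunit genes had EZH2 at 1 of 33 in sgPRKCI and 6 in sgC. EZH2 itself, EED, LCOR, PHC2 and YAF2 were lost, all with H3K4me3 only and fold enrichments of 3.30 to 6.24 in sgC, and BMI1 was kept. Androgen response genes had EZH2 at 3 of 30 in sgPRKCI and 7 in sgC. TMEFF2 (24.9 in sgPRKCI, 28.1 in sgC), INSIG1 (16.9 and 22.9) and ELL2 were kept, and ACP3, PMEPA1 and MAF were among those lost. Genes of other cell lineages, read as a control list, had EZH2 at 2 of 30 in sgPRKCI (MYOD1 and HBA1) and 5 in sgC. Every one of the 14 lists thus had fewer members with EZH2 in sgPRKCI, as did all protein-coding genes, in a comparison where the sgPRKCI peak list was the shorter. With equal numbers of peaks the net loss ranged from 0 members (HOX cluster genes, translation factors) to 9 (receptor tyrosine kinases).

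**Figure D5:**
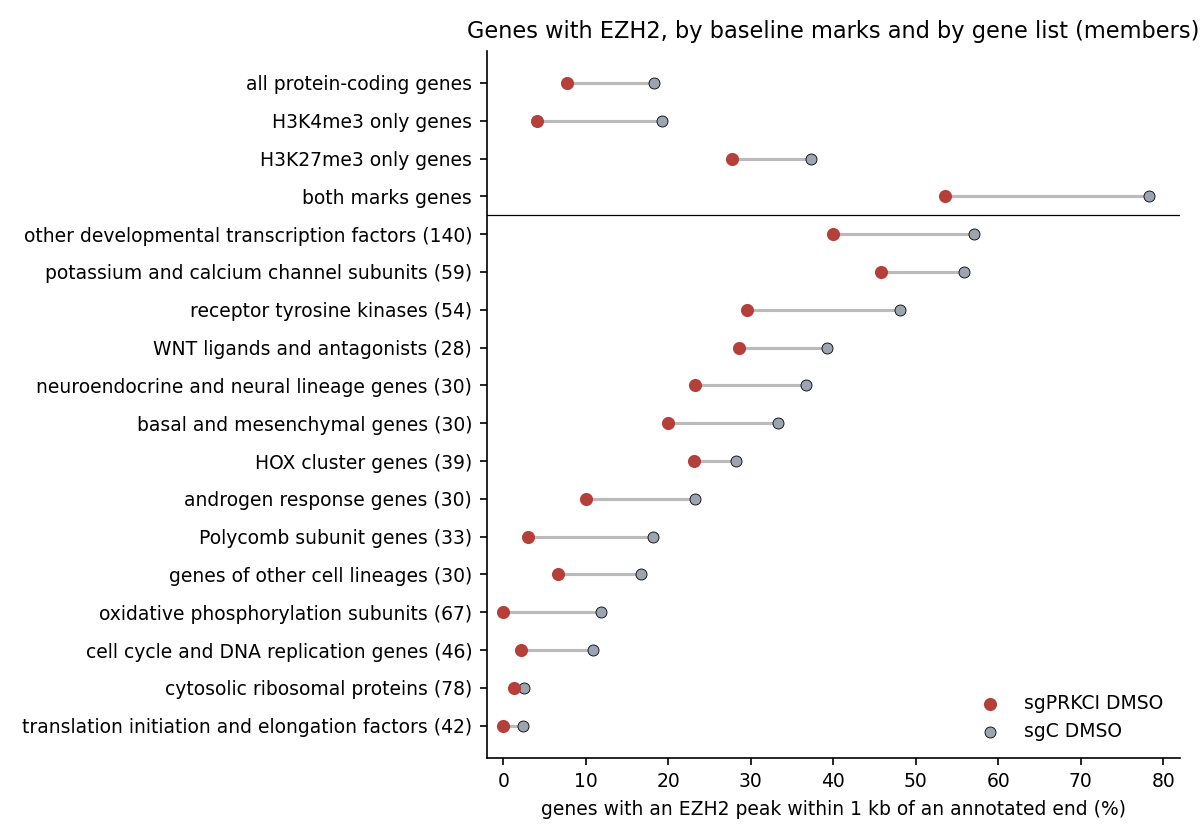
Percent of genes with an EZH2 peak within 1 kb of an annotated end (horizontal axis) in sgPRKCI DMSO and sgC DMSO, for all protein-coding genes, for genes by baseline marks (above the line) and for 14 gene lists with their number of members (below it). The sgPRKCI point lies left of the sgC point in every row, with 7.69% against 18.3% over all genes. The peak lists were not matched in number here, and the sgPRKCI list is the shorter.

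In the 300-base promoter windows of RefSeq, 250 bases upstream to 50 downstream of the start and available for 15812 genes, lost and kept H3K4me3-only promoters were alike in CpG content. The median was 31 CpGs in 1152 lost and 33 in 235 kept promoters, against 27 in 7692 with no EZH2 peak. H3K27me3-only promoters had a median of 23 CpGs in 184 lost and 26 in 348 kept ones, against 8 in 822 with no EZH2 peak. The letters CCGGAAG, the core bound by ETS factors, were searched on both strands and were present in 14.2% of all promoters. Among H3K4me3-only promoters they were present in 16.5% of lost, 9.79% of kept and 23.3% of those with no EZH2 peak, so that lost promoters lay between the other groups. GGGCGG, the GC box, was present in 58.5% of all promoters, and in 82.7%, 86% and 73.9% of the same groups in that order. A match is a description of the letters and does not show binding.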

How the data were processed

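CUT&RUN peak lists of EZH2, H3K4me3 and H3K27me3 in LNCaP cells were used, with guides and treatments taken from the genotype and treatment labels. The submitters' processing notes list FastQC, Trimmomatic, Bowtie2, SAMtools, MACS2 and GRCh38 without settings. The deposited lists have the MACS2 layout, narrow for EZH2 and H3K4me3 but broad for H3K27me3, with 1 list per library. Each deposited peak has a fold enrichment ratio over local background, a −log10 p, a −log10 q and a score of 10 times the −log10 q. Column 10 of the narrow lists, as deposited, is the summit offset. Fold enrichments and q values are the authors' and describe peaks within a list. The lowest −log10 q was 4.03 in the sgPRKCI EZH2 list and 4.01 in the sgC EZH2 list, and a site without a peak is one that did not reach that level.

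Peaks on chromosomes 1 to 22 and X were kept; 330 of 6495 rows of the sgPRKCI list, 1 of them malformed, and 516 of 11949 of the sgC list lay on other contigs. Read totals are not used here. Whole-fragment summit pileups and local backgrounds were solved from fold enrichment and −log10 p, to within 0.002, for 100% of narrow peaks; the lowest background is the mean coverage of a library and a height is pileup over coverage. All 1960 simulated peaks were solved correctly. Each sgC peak was paired with the overlapping sgPRKCI peak of highest −log10 q. Gene positions, promoters and hairpins came from RefSeq tables (GRCh38.p14), with 19974 protein-coding genes; a gene had EZH2 where a peak lay within 1 kb of either end. Intervals are exact Clopper-Pearson 95% intervals, and those of medians are from order statistics; peaks are not independent, so they are too narrow for a wider claim. The spike-in reads and the IgG libraries are not used here. Python 3.11.15, numpy 2.4.6, pandas 2.3.3, scipy 1.17.1 and matplotlib 3.10.9 were used.

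Named peaks were, within 1 kb of a gene end and by −log10 q, the 5 strongest lost and 4 strongest kept per class and 8 strongest gained, the 5 lowest and 5 highest height ratios with at least 20 fragments at both summits, up to 3 members per list, and PRKCI and EZH2; other list members are named as lost or gained. The members, the 14 gene lists and this rule were chosen with earlier results of these data known.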

Additional observations from a re-analysis of the deposited data

How the results depend on the processing

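H3K4me3-only peaks were lost more often than H3K27me3-only peaks under each alternative that was run. H3K27me3-only peaks were lost more often than peaks with both marks over the whole lists, but less often among high peaks and in most height bins. In bins of −log10 q they were lost less often only in the upper bins and more often in the lower ones. Genes with H3K27me3 only lost EZH2 less often than genes with both marks (28.6% and 33.2%). With equal numbers of peaks, 2754 peaks were lost and 2045 gained, 1095 genes lost and 318 gained EZH2, and the shares lost were 73.9% for H3K4me3 only, 36% for H3K27me3 only, 24.2% for both marks and 75.4% for neither mark; the oxidative phosphorylation list then lost a net 1 member, the Polycomb list 1 and the HOX list 0. Among sgC peaks that would be called at the sgPRKCI coverage, 9438 of 11433, the shares were 80.5% for H3K4me3 only, 50.2% for H3K27me3 only and 81.6% for neither mark. Among sgC peaks at least 2 times as high as needed, an alternative chosen after seeing the data, they were 39.5%, 4.1%, 8% and 40% in the order of the classes above. In the highest of 5 bins of −log10 q in place of height, also added later, they were 47.3%, 6.72%, 9.38% and 43.9%. A −log10 q of at least 6 gave 53.6% for H3K27me3 only, and an overlap of 50% of either peak 60.7%. With a peak of the other library within 1 kb counted as kept, 816 peaks were gained and the shares lost were 80.2% for H3K4me3 only, 45% for H3K27me3 only and 79.4% for neither mark. Marks of the sgPRKCI libraries gave 25% for both marks and 91.5% for neither; marks of any condition gave 83.8% for H3K4me3 only, 59.4% for H3K27me3 only and 90.5% for neither; stricter H3K27me3 peaks gave 24.2% for both marks; summits inside the mark gave 80.7% for H3K4me3 only and 81.7% for neither. The median log2 height ratio of all kept pairs was -0.0944 as fold enrichment, -0.11 with summits within 100 bp and -0.17 with at least 20 fragments in sgC. For H3K4me3 only it was -0.0343 as fold enrichment and -0.27 with 20 fragments, for H3K27me3 only -0.0773, -0.0686 and -0.128 under the same 3 settings, and for neither mark it turned to 0.13 as fold enrichment; the causes were not tested. With the window placed 1 kb around the transcription start, also chosen after seeing the data, the basal and mesenchymal list lost a net 0 members. The lower coverage of the sgPRKCI EZH2 library limits what a missing weak peak can show. No paired analysis was possible because each condition has 1 library per antibody.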

Other observations

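EZH2 lay within 1 kb of 37 of 1558 microRNA hairpins in sgPRKCI and 59 in sgC, with 27 lost and 5 gained. Hairpins with H3K27me3 only had it at 22 in sgPRKCI and 25 in sgC, and those with H3K4me3 only at 11 and 29, and 20 of the 27 losses lay at hairpins with H3K4me3 only. Kept hairpins included MIR137, with a fold enrichment of 7.96 in sgPRKCI and 8.11 in sgC, MIR129-2 (10.8 and 14.3), MIR125B1 (11.8 and 10.9), MIR375 (11.3 and 6.72) and the neighbours MIR132 and MIR212, which share a peak (8.83 and 17.4). MIR203A (5 in sgC) and MIR153-1 (7.01 in sgC) were lost. The fold enrichments are the authors' values, within each list, of the strongest peak within 1 kb.

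By chromosome, the share of sgC peaks lost was lowest on chromosome 18 (188 of 398, 47.2%) and chromosome 22 (165 of 346, 47.7%) and highest on X (79 of 102, 77.5%, interval 68.1 to 85.1%). Within H3K27me3-only peaks alone the share lost was 42.8% on chromosome 18, 42.4% on chromosome 22 and 62.3% on X. The share of sgC peaks with H3K4me3 only was 12.8%, 11% and 36.3% on these chromosomes in that order, but it did not follow the share lost throughout, since chromosome 6 held 41.5% with 67.1% lost and chromosome 8 held 15.8% with 66.7% lost. Some of the strongest lost peaks far from genes lay on the short arm of chromosome 21, where sgC summits held 276 and 340 fragments but fold enrichments were 4.09 and 3.08. Near them, other sgC peaks with 1769 and 1743 fragments were kept, with 1127 and 1147 fragments in sgPRKCI. These fragment numbers are not scaled to coverage, and the log2 ratios of height were -0.386 and -0.339.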
